A study of Mus musculus with 11 samples.

Results

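The insulin-like growth factor (IGF) system was examined in lung mesenchymal cells of mice that had part of the lung removed (pneumonectomy, PNX) or had sham surgery. Its 10 genes were chosen by symbol: the ligand genes Igf1 and Igf2, the receptor genes Igf1r and Igf2r, and the binding protein genes Igfbp2, Igfbp3, Igfbp4, Igfbp5, Igfbp6 and Igfbp7. All 10 were present among the 24411 gene symbols of the read count table, and all 10 were among the 16011 genes that passed a filter on low counts. The cells came from C57BL6 mice, with no other allele or agent named, and had been sorted by flow cytometry as lacking EpCAM, CD45 and CD31, which mark epithelial, blood-derived and endothelial cells. The groups were sham at day 7 (3 libraries), PNX at day 7 (3), sham at day 14 (2) and PNX at day 14 (3), 11 libraries in all. The labels give neither the sex nor the age of the mice. Counts of 4 Y-linked genes were 0 in PNX replicates 2 and 3 of day 14, in sham replicate 1 of that day and in sham replicate 3 of day 7, and summed to 1026 to 3903 in the other 7 libraries, so that the groups differ in this respect. The labels also do not say whether replicates came from separate animals, so each p-value reflects how far libraries of a group spread, and that spread may be technical in part.

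IGF1 and IGF2 are small secreted growth factors related to insulin. Both signal through the tyrosine kinase receptor encoded by Igf1r, which activates the PI3K and AKT pathway and promotes growth and survival of cells, whereas the receptor encoded by Igf2r binds IGF2 and carries it to lysosomes for degradation. Binding proteins hold the ligands outside the cell, prolong their life and limit or aid their access to the receptor, and proteases release the ligands by cutting the binding proteins. In the lung, fibroblasts and macrophages are known sources of IGF1.

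The libraries held from 2539628 to 9008592 counts, of which the 10 genes took from 0.296 to 0.428%. Background was gauged from chemosensory receptor genes of the nose, whose share ranged from 89.9 to 1606 CPM (counts scaled to a common library total). It was highest in sham day 14 replicate 1, then in PNX day 7 replicate 2, and next in sham day 7 replicate 2. All 10 listed mesenchymal markers were detected, with summed levels of 20709 to 30629 CPM in sham and 25416 to 30208 CPM in PNX at day 7, and of 16448 to 22087 CPM in sham and 26872 to 36272 CPM in PNX at day 14. Markers of gated-out cells were also present. Of the epithelial list all 11 genes were in the table, with a summed level from 215 CPM in sham day 7 replicate 3 to 17949.8 CPM in PNX day 14 replicate 2, and endothelial markers (11 genes) summed to 156 to 1304 CPM. The 5 erythroid markers summed to 253.5 to 79877 CPM. No marker in the table was at 0 in all libraries. Of 14 haematopoietic markers, all 14 were lower after PNX at day 14 (median log2 fold change -2.64, 0 past the threshold, 10 at an unadjusted p under 0.05), and their summed level was 2080.4 to 2270 CPM in sham and 1507 to 2009 CPM in PNX at that day. The marker sums and the CPM of single genes below are scaled by TMM factors, which correct for differences in composition between libraries. The receptor-gene share is over plain library totals. Fewer cells of a type and less RNA per cell cannot be told apart in such bulk samples.

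The 10 genes lie at separate loci apart from a pair. In mm10, Igfbp2 (chromosome 1, 72824503 to 72852474, plus strand) and Igfbp5 (chromosome 1, 72857932 to 72874884, minus strand) face each other tail to tail with 5457 bases between them. Igf1 lies on chromosome 10 (87858265 to 87937042), Igf2 on chromosome 7 (142650766 to 142666816), Igf1r on chromosome 7 (67952827 to 68233668) and Igf2r on chromosome 17 (12682406 to 12769664). Igfbp3 (7206086 to 7213923) and Igfbp4 (99041244 to 99054392) lie far apart on chromosome 11, Igfbp6 lies on chromosome 15 (102144362 to 102149511) and Igfbp7 on chromosome 5 (77349240 to 77408041). Igf1, Igf2, Igf2r and Igfbp7 overlap genes on the opposite strand, and since no strand setting is stated, reads of such pairs cannot be told apart. Igf2os, antisense to Igf2, had 3 to 13 counts in a library against 23 to 79 for Igf2. Airn, antisense to Igf2r, had 19 to 72 counts against 121 to 572, and Polr2b, which overlaps Igfbp7, had 106 to 1064 counts against 1228 to 2523.

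The 100 bases before the annotated start are shown for Igfbp3, Igfbp4 and Igfbp5, 3 binding protein genes whose estimates for PNX against sham took 3 different forms: lower at both days for Igfbp3, close to 0 for Igfbp4, and of opposite sign at the 2 days for Igfbp5. The start is GENCODE's outermost, which for Igfbp5 lies 19 bases upstream of RefSeq's. The letters are RefSeq's in GRCm38.p6, the assembly behind mm10, and run 5′ to 3′ on the strand of the gene, at chr11:7213924-7214023 (minus strand), chr11:99041144-99041243 (plus strand) and chr1:72874885-72874984 (minus strand). Capitals mark matches to the motifs searched on both strands.
Igfbp3: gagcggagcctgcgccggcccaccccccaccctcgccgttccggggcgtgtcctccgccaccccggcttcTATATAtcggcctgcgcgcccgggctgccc
Igfbp4: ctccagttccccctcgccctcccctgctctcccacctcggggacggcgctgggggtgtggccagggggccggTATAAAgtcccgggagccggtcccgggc
Igfbp5: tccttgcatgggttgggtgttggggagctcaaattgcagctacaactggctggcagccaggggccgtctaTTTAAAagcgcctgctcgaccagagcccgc
Each window held a match to 1 of 3 hexamers rich in A and T, close to where a TATA box usually lies when counted from GENCODE's start. TATATA lay 30 to 25 bases before the start of Igfbp3, TATAAA 28 to 23 bases before that of Igfbp4 and TTTAAA 30 to 25 bases before that of Igfbp5. From RefSeq's start the Igfbp5 match lies 19 bases further away. Over 32851 promoter windows of 100 bases in the same RefSeq table, 2.19% held TATATA, 5.56% TATAAA and 4.39% TTTAAA. Those windows end at RefSeq's start, so the window of Igfbp5 is placed differently from them. The motifs GGGCGG (in 24.7% of all windows) and CCAAT (in 18.9%) were searched as well and had no match in the 3 windows. The GC content of the windows was 77.0% for Igfbp3, 75.0% for Igfbp4 and 59.0% for Igfbp5. These matches are a description of the letters and are not shown to be sites of any factor.

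Per exon length, Igfbp6 and Igfbp7 had the highest mean levels of the 10 over all libraries. Ordered by the mean level over all libraries, in CPM per kilobase of annotated exon, Igfbp6 stood at 1065, Igfbp7 at 269, Igfbp4 at 120.5, Igfbp5 at 117, Igf1 at 68.9, Igfbp3 at 32.1, Igfbp2 at 10.9, Igf2r at 6.48, Igf1r at 5.65 and Igf2 at 1.59. Among 15365 tested genes with an exon length, Igfbp6 stood above 99.8%, Igf1 above 94.9% and Igf2 above 35.6%. Igfbp6 was above Igfbp7, Igfbp7 above Igfbp4, and Igf1r above Igf2 in 11 of 11 libraries. The order of other neighbours was less firm: Igfbp4 was above Igfbp5 in 5 of 11 libraries, Igfbp5 above Igf1 in 8, Igf1 above Igfbp3 in 8, Igfbp3 above Igfbp2 in 10, Igfbp2 above Igf2r in 7 and Igf2r above Igf1r in 8. The order also differed between groups: in PNX at day 14 the mean of Igf1 was 111 CPM per kilobase and that of Igfbp4 97.0, and in replicates 2 and 3 of that group Igf1 was above both Igfbp4 and Igfbp5. It depends on exon lengths taken from GENCODE M21 (1112 bases for Igfbp6, 16791 for Igf1r), since the transcripts in use were not measured.

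**Figure D1:**
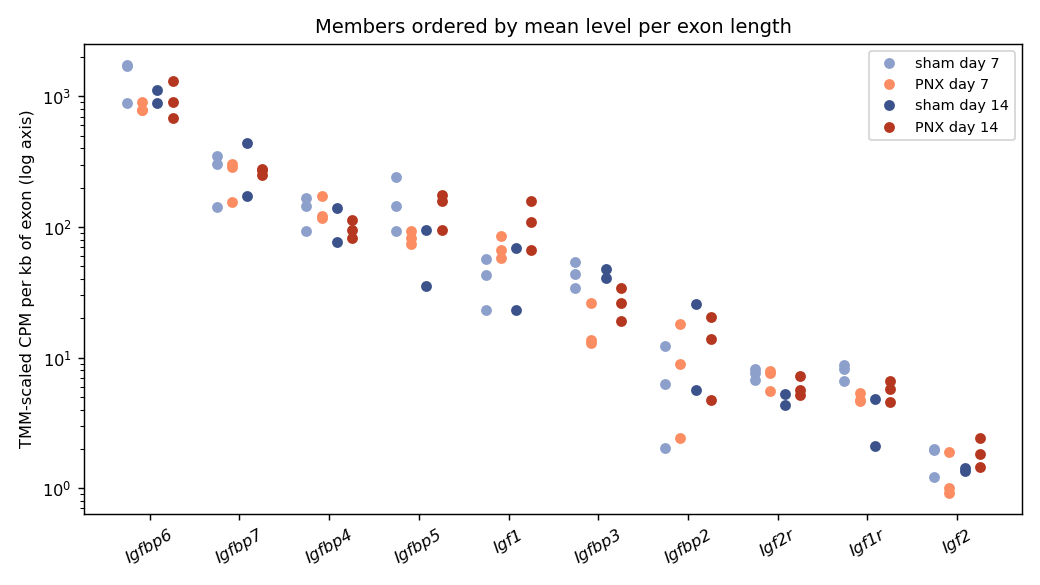
Level of each of the 10 genes in every library, in TMM-scaled CPM per kilobase of exon on a log axis, ordered by the mean over 11 libraries and coloured by group. Igfbp6 stands highest (mean 1065) and Igf2 lowest (mean 1.59), and the points of Igfbp4, Igfbp5 and Igf1 share a range.

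None of the 10 genes passed the threshold, an adjusted p of 0.05 over all 16011 genes by edgeR, in PNX against sham at day 7, at day 14 or over both days, in either comparison of days, or in the interaction of surgery and day. The share of all genes that passed in either direction was itself small: 0.0375% at day 7, 0.00625% at day 14, 0.194% over both days, 0.0187% between days after sham, and 0% between days after PNX and for the interaction. At an unadjusted p under 0.05, members numbered 0 higher and 3 lower at day 7 (4.66% and 8.07% of all genes), 2 higher and 0 lower at day 14 (3.19% and 3.63%), 1 and 1 over both days (3.92% and 6.37%) and 2 and 0 for the interaction (4.16% and 4.6%). Between days they numbered 0 and 0 after PNX (3.72% and 3.13%) and 0 and 2 after sham (6.32% and 7.94%). The median log2 fold change of the 10 genes was -0.28 at day 7, with 3 higher and 7 lower, beside 0.03 for all genes, of which 51.7% were higher. The day 14 median was 0.14, with 5 higher and 5 lower, beside -0.07 for all genes, of which 45.1% were higher. Estimates were above 0 for 5 members over both days (46.6% of all genes), 7 for the interaction (49.5%), 8 between days after PNX (45.9%) and 4 between days after sham (52.5%). DESeq2 called 1 member at day 7 and over both days, Igfbp3 each time, and 1 between days after sham, Igf1r. Among 23040 genes with a count in any library it called 434 at day 7, 295 over both days and 641 between days after sham. Its default filter sets low-count genes aside before adjustment, so fewer than 23040 may have been adjusted over. Limma voom called Igfbp3 at day 7 and no other member, beside 932 of all 16011 genes at day 7.

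**Figure D2:**
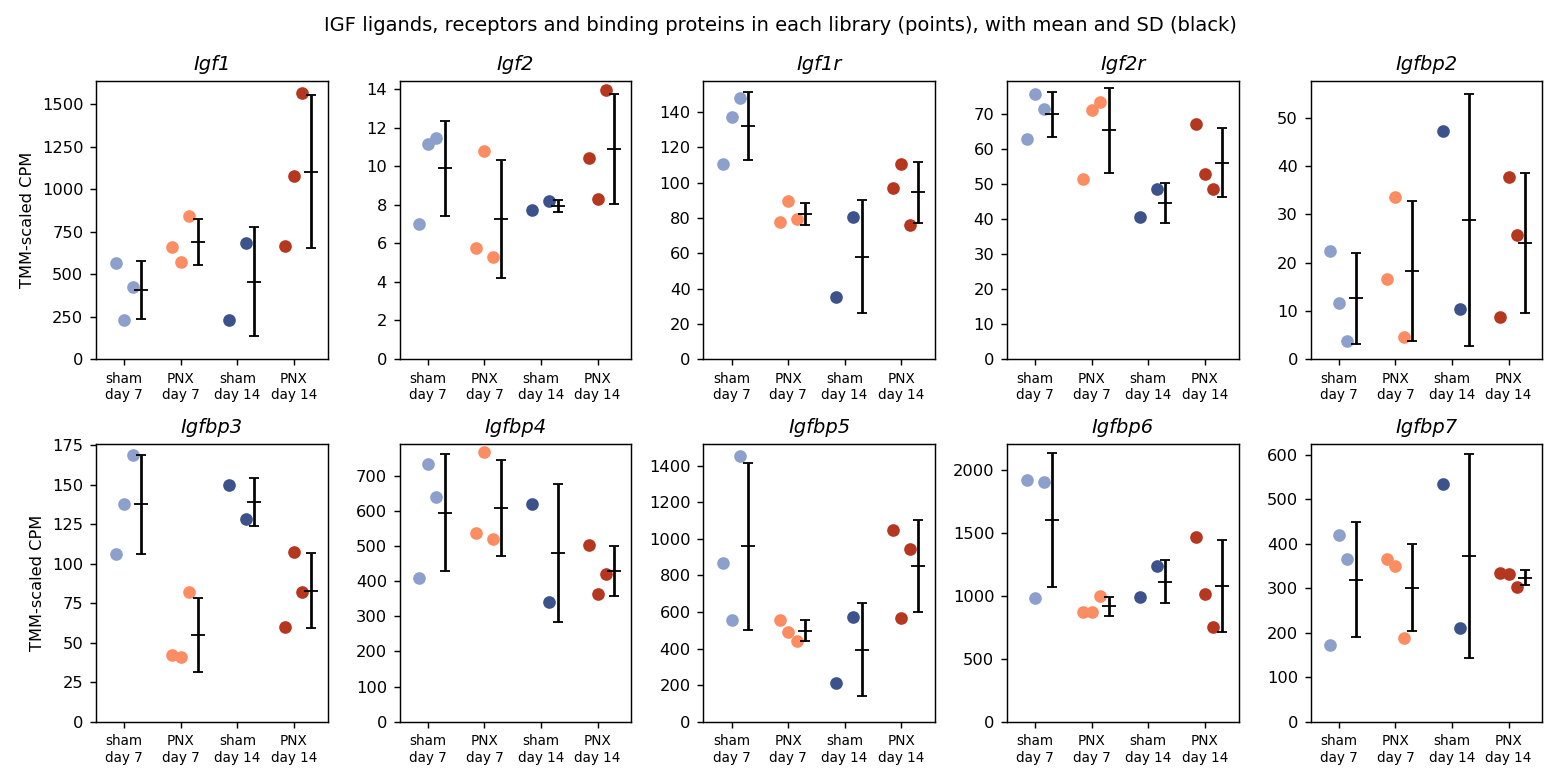
TMM-scaled CPM of each gene in every library (points) by surgery and day, with the mean and SD of the group in black beside them. The PNX libraries of Igfbp3 lie below the sham libraries at each day, and the PNX libraries of Igf1 lie above the sham libraries at day 7, while the groups of Igfbp7 and Igfbp2 overlap at both days.

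Igf1, the main IGF ligand gene of these cells, was at a higher mean level after PNX at both days, without passing the threshold. At day 7 it stood at 566, 229 and 422 CPM in sham and at 657, 573 and 839 CPM in PNX, so that each PNX library was above each sham library. Groups were separated in this direction for 9.95% of all genes. Mean levels were 406 ± 169 CPM in sham and 689.8 ± 136 CPM in PNX (SD, n = 3 each), a log2 fold change of 0.77 ± 0.45 SE (adjusted p = 0.526 by edgeR). It was 0.44 without sham replicate 2, the low library at 229 CPM and 1 of the 3 with most background, and 1.08 without sham replicate 1. At day 14 the sham libraries stood at 230.1 and 682 CPM and the PNX libraries at 666, 1074 and 1564 CPM. The groups overlapped there, since sham replicate 2 was above PNX replicate 1. The log2 fold change at day 14 was 1.27 ± 0.52 (adjusted p = 0.665 by edgeR), and it was 0.68 without sham replicate 1, which also had high background, and 2.41 without sham replicate 2. Over both days the log2 fold change was 1.02 ± 0.34, a 2.03-fold higher level (unadjusted p = 0.00821, adjusted p = 0.263 by edgeR). Without the 3 libraries of highest background it was 0.65, with replicate 2 as the only sham library of day 14. The PNX libraries highest in Igf1, at 1074 and 1564 CPM, were those of their group without Y-linked counts. With the presence or absence of these counts as a covariate the estimate was 0.75 at day 7, 1.30 at day 14 and 1.02 over both days. The difference between the effects at the 2 days was 0.50 ± 0.67 (adjusted p = 0.809), and from day 7 to day 14 after PNX the log2 fold change was 0.67 ± 0.45 (adjusted p = 0.766 by edgeR).

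Macrophages, which also express Igf1, were the gated-out cells checked beside it. The 11 listed macrophage markers summed to 23.3 to 93.4 CPM in sham and 76.7 to 96.9 CPM in PNX at day 7. There 6 of 11 had a higher estimate after PNX and 5 a lower one (median log2 fold change 0.14, 0 past the threshold). At day 14 they summed to 208 to 306 CPM in sham and 80.9 to 162 CPM in PNX, and 11 of 11 had a lower estimate after PNX (median log2 fold change -1.90, 0 past the threshold). At an unadjusted p under 0.05 by edgeR, 3 of the 11 were higher and 0 lower at day 7 (4.66% and 8.07% of all genes). At day 14, 0 were higher and 6 lower (3.19% and 3.63%). Mean Igf1 was higher after PNX at both days. The median estimate of the macrophage markers was above 0 at day 7 and below 0 at day 14. The markers' part in the Igf1 values was not tested.

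Igf2, a ligand gene that is active in the fetus and mostly silent afterwards, was the lowest of the 10. Its levels were 7.03, 11.2 and 11.5 CPM in sham and 5.78, 10.8 and 5.27 CPM in PNX at day 7 (log2 fold change -0.46 ± 0.42). At day 14 they were 7.73 and 8.17 CPM in sham and 10.4, 8.32 and 13.9 CPM in PNX (0.45 ± 0.48). Each PNX library of day 14 was above both sham libraries, the closest pair at 8.32 against 8.17 CPM, and groups were separated in this direction for 9.57% of all genes. Neither difference passed (adjusted p = 0.733 and 0.868 by edgeR).

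Igf1r, which encodes the signalling receptor, had estimates of opposite sign at the 2 days. At day 7 it stood at 111, 137 and 148 CPM in sham and at 77.7, 89.4 and 79.5 CPM in PNX, so each PNX library was below each sham library, a separation that 9.57% of all genes showed. The log2 fold change was -0.68 ± 0.33 (unadjusted p = 0.0539, adjusted p = 0.407 by edgeR). At day 14 the levels were 35.3 and 80.8 CPM in sham and 97.0, 111 and 76.2 CPM in PNX (0.70 ± 0.38, adjusted p = 0.747 by edgeR), and the groups overlapped. The difference between the days' effects was 1.38 ± 0.50 (unadjusted p = 0.0134, adjusted p = 0.440 by edgeR). Sham itself was lower at day 14 than at day 7 (-1.18 ± 0.38, adjusted p = 0.150 by edgeR; -1.15 ± 0.38, adjusted p = 0.0449 by DESeq2), and the 2 groups did not overlap, as was so for 11.8% of all genes. Sham day 14 replicate 1, at 35.3 CPM, was the lowest of the 11 libraries and also 1 of the 3 with most background. Without it the day 14 estimate was 0.22, the difference between the days' effects 0.91 and the day estimate in sham -0.70. Without sham day 14 replicate 2 they were 1.57, 2.31 and -2.08, where sham at day 14 rests on replicate 1 alone.

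Igf2r, which encodes the receptor that clears IGF2, varied least of the 10, by 1.86-fold between its lowest and highest library. Its levels were 63.0, 75.6 and 71.3 CPM in sham and 51.3, 71.2 and 73.5 CPM in PNX at day 7, with a log2 fold change of -0.10 ± 0.29 and a 95% interval from -0.71 to 0.51. At day 14 they were 40.6 and 48.7 CPM in sham and 67.2, 52.7 and 48.5 CPM in PNX (0.33 ± 0.33, interval from -0.37 to 1.02). Like Igf1r, Igf2r was lower in both sham libraries of day 14 than in any sham library of day 7 (-0.64 ± 0.33, adjusted p = 0.397 by edgeR).

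Igfbp3 showed the smallest p of the 10 genes for PNX against sham at day 7 and over both days. It encodes the main IGF carrier of blood plasma, which in tissues restrains IGF action. At day 7 it stood at 106, 137 and 169 CPM in sham and at 42.5, 40.7 and 82.0 CPM in PNX. The day 14 levels were 149.8 and 128 CPM in sham and at 59.7, 107 and 81.8 CPM in PNX. Each PNX library was below each sham library of the same day, as was so for 9.57% of all genes at day 7 and 8.28% at day 14. The mean was 137 ± 31.5 CPM in sham and 55.1 ± 23.3 CPM in PNX at day 7, and the log2 fold change of -1.32 ± 0.36 had an unadjusted p of 0.00164 and rank 216 among 16011 genes (adjusted p = 0.121 by edgeR). DESeq2 (-1.31 ± 0.36, adjusted p = 0.0189) and limma voom with sample weights (-1.60 ± 0.28, adjusted p = 0.00688) called this difference, among 434 and 932 genes called in all. At day 14 the log2 fold change was -0.74 ± 0.39 (adjusted p = 0.747 by edgeR).

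Over both days the estimate for Igfbp3 was -1.03 ± 0.26, a 2.04-fold lower level (unadjusted p = 9.63e-04, adjusted p = 0.105 by edgeR, adjusted p = 0.0149 by DESeq2). The difference between the days' effects was 0.57 ± 0.53 (adjusted p = 0.727 by edgeR). From day 7 to day 14 after PNX the estimate was 0.59 ± 0.35 (adjusted p = 0.762), and sham means stood at 137 ± 31.5 and 139 ± 15.4 CPM. With 1 library left out, the day 7 estimate ranged from -1.77 without PNX replicate 3 of that day to -1.14 without sham replicate 3 of that day. Igf1 and Igfbp3, a ligand and a binding protein gene, thus had mean levels that differed from sham in opposite directions at both days. Both sets of values come from the same libraries.

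Alveolar fibroblast markers were lower beside Igfbp3. These 12 genes summed to 5320 to 7431 CPM in sham and 3222 to 3946 CPM in PNX at day 7, and to 6674 to 10190.2 CPM in sham and 3618 to 6452 CPM in PNX at day 14. At each day 11 of the 12 had a lower estimate after PNX (median log2 fold change -0.94 at day 7 and -1.21 at day 14, 0 past the threshold at either day), and over both days 2 passed as lower. Mesothelial markers, of which 9 of 10 were in the table, were higher in 9 of 9 at day 14 (median 0.92, 0 past the threshold), with sums of 890.2 to 2530 CPM in sham and 2676 to 3392 CPM in PNX. The higher day 14 means of Igf1, Igf1r and Igfbp5 after PNX stood beside higher mesenchymal and smooth muscle sums. Of the 10 mesenchymal markers 8 were higher at day 14 (median 0.95, 0 past the threshold), with the sums given above, each PNX library above both sham libraries. Of 8 smooth muscle markers 6 were higher (median 0.65, 0 past the threshold), with sums of 1625 to 2419 CPM in sham and 2662 to 3456 CPM in PNX. The part of these lists in the values of the IGF genes was not tested.

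**Figure D3:**
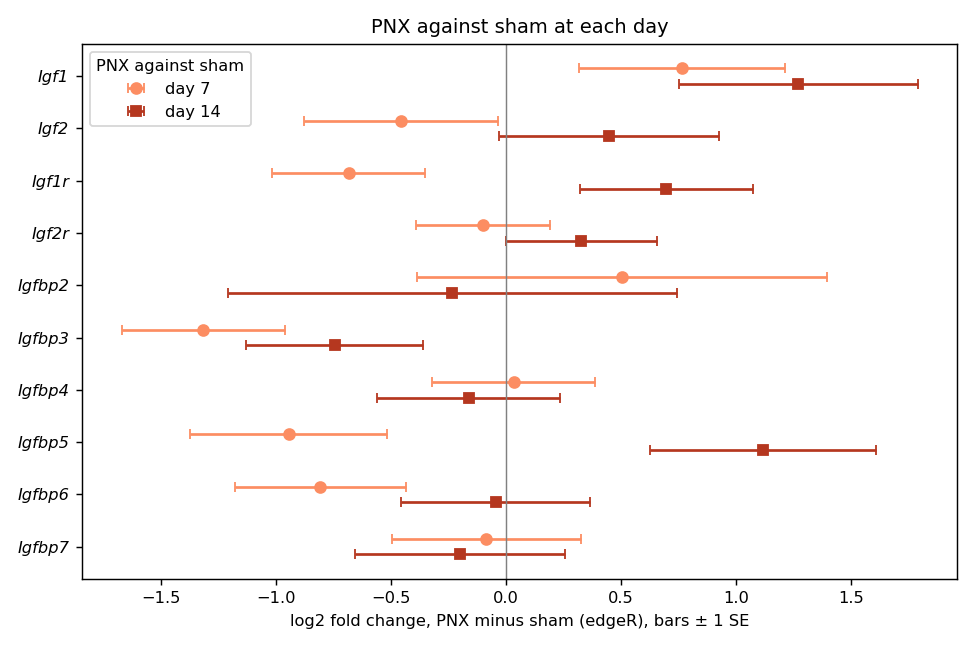
Log2 fold change of PNX against sham for the 10 genes at day 7 (circles) and day 14 (squares) from edgeR, with bars of 1 SE. Igf1 lies above 0 and Igfbp3 below 0 at both days, Igf1r and Igfbp5 lie below 0 at day 7 and above 0 at day 14, and no estimate passed the threshold.

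Igfbp5 had the largest difference between days. It encodes a binding protein that attaches to extracellular matrix and is produced by fibroblasts. At day 7 it stood at 866, 555 and 1455 CPM in sham and at 558, 493 and 444 CPM in PNX, with 1 PNX library above the lowest sham library. The log2 fold change was -0.94 ± 0.43 (unadjusted p = 0.0408, adjusted p = 0.368 by edgeR), and it was -0.51 without sham replicate 3. At day 14 the levels were 213 and 573 CPM in sham and 1047 (replicate 1), 567 and 945 CPM in PNX, and the estimate was of opposite sign (1.12 ± 0.49, unadjusted p = 0.0361, adjusted p = 0.701 by edgeR). The difference between the days' effects was 2.06 ± 0.65 on the log2 scale (unadjusted p = 0.00554, rank 237 among 16011 genes, adjusted p = 0.364 by edgeR).

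Levels of Igfbp5 differed between days in both surgeries, in opposite directions and without passing. In sham it was lower at day 14 (-1.28 ± 0.50, adjusted p = 0.221 by edgeR), and in PNX it was higher in each library of day 14 than in any of day 7 (0.78 ± 0.43, adjusted p = 0.755 by edgeR), a separation shown by 9.02% of all genes. Sham day 14 replicate 1 was again the lowest library. Without it the day 14 estimate was 0.56, the difference between days' effects 1.52 and the estimate between days in sham -0.73. Without sham day 14 replicate 2 these were 2.14, 3.14 and -2.34. The lone sham library then left at day 14 was replicate 1, which had the highest background and the lowest count total of all libraries.

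Igfbp6, which binds IGF2 in preference to IGF1, had the highest mean level per exon length in every group. It stood at 1923, 987 and 1903 CPM in sham and at 876, 871 and 1003 CPM in PNX at day 7, where 1 PNX library was above the lowest sham library (-0.81 ± 0.37, unadjusted p = 0.0433, adjusted p = 0.372 by edgeR). At day 14 it stood at 992 and 1235 CPM in sham and at 1469, 1015 and 754 CPM in PNX, and the PNX libraries lay on both sides of the sham libraries (-0.05 ± 0.41, 95% interval from -0.91 to 0.82). The sham libraries of day 7 that were highest in Igfbp6, replicates 1 and 3, were also highest in adventitial fibroblast markers. They were above replicate 2 in mesenchymal, smooth muscle, pericyte and mesothelial markers too, but not both in alveolar fibroblast markers. Replicate 2 had the highest epithelial sum of that group, 13413 CPM, and was among the 3 libraries of highest background. The 12 adventitial genes summed to 6273 to 17769 CPM in sham and 4795 to 6351 CPM in PNX at day 7, and 5378 to 7615 CPM and 6428 to 9329 CPM at day 14. At day 7, 10 of the 12 had a lower estimate after PNX (median log2 fold change -0.945, 0 past the threshold). Their part in the values of Igfbp6 and Igfbp5 was not tested.

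Igfbp4 and Igfbp7 had estimates close to 0 and groups that overlapped at both days. Igfbp4, which encodes an inhibitory binding protein cleaved by the protease PAPP-A, stood at 409.9, 733 and 639 CPM in sham and at 537, 766 and 520.4 CPM in PNX at day 7 (0.03 ± 0.36, 95% interval from -0.71 to 0.78). By day 14 the levels were 619 and 341 CPM in sham and at 503, 364 and 419 CPM in PNX (-0.16 ± 0.40, interval from -0.996 to 0.67). Within PNX it was lower in each library of day 14 than in any of day 7 (-0.50 ± 0.36, adjusted p = 0.770 by edgeR), as were 9.08% of all genes. Igfbp7, a secreted protein of vessels and mesenchyme that binds IGFs weakly, stood at 173, 421 and 366 CPM in sham and 366, 349 and 188 CPM in PNX at day 7 (-0.09 ± 0.41, interval from -0.95 to 0.78). At day 14 it stood at 535 and 209.8 CPM in sham and 334, 332 and 304 CPM in PNX (-0.20 ± 0.46, interval from -1.16 to 0.76). Intervals of this width do not show that the surgeries were alike for Igfbp4 or Igfbp7.

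Igfbp2, which encodes a binding protein with affinity for both ligands, spread most of the 10, by 12.6-fold between libraries. It stood at 22.5, 11.6 and 3.77 CPM in sham and at 16.7, 33.5 and 4.497 CPM in PNX at day 7. Levels at day 14 were 47.4 and 10.4 CPM in sham and at 8.77, 37.8 and 25.6 CPM in PNX. The groups overlapped at both days, and the estimates of 0.50 ± 0.89 and -0.23 ± 0.98 had 95% intervals from -1.37 to 2.38 and from -2.29 to 1.82. The 11 epithelial markers summed to 215 to 13413 CPM in sham and 958 to 2574 CPM in PNX at day 7, and to 3144 to 13547 CPM in sham and 7954 to 17949.8 CPM in PNX at day 14. Of these markers 4 were higher and 7 lower after PNX at day 7 (median log2 fold change -0.63, 0 past the threshold). At day 14, 5 were higher and 6 lower (median -0.35, 0 past the threshold), and over both days 1 passed as higher. The markers' part in the Igfbp2 values was not tested.

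Summed per exon length, the 6 binding protein genes stood at 2052 ± 465 CPM per kilobase in sham at day 7 (SD, n = 3), 1322 ± 40.7 in PNX at day 7 (n = 3), 1543 ± 56.6 in sham at day 14 (n = 2) and 1517 ± 354 in PNX at day 14 (n = 3). Igfbp6 made up 69.1 ± 11.4% of that sum in sham and 62.5 ± 7.04% in PNX at day 7, and 65.1 ± 12.4% and 63.0 ± 6.93% at day 14. Igfbp3 made up 2.204 ± 0.636% and 1.34 ± 0.613% at day 7, and 2.87 ± 0.213% and 1.85 ± 0.749% at day 14. Set against the summed binding proteins, Igf1 ranged from 1.497 to 2.65% in sham and 4.26 to 6.63% in PNX at day 7, with no overlap. The ratio could not overlap there, since each PNX library was higher in Igf1 and lower in the sum than each sham library. At day 14 it ranged from 1.47 to 4.58% in sham and 3.52 to 12.9% in PNX. These are ratios of transcript levels per exon length, given as a description without a test, and no protein was measured.

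**Figure D4:**
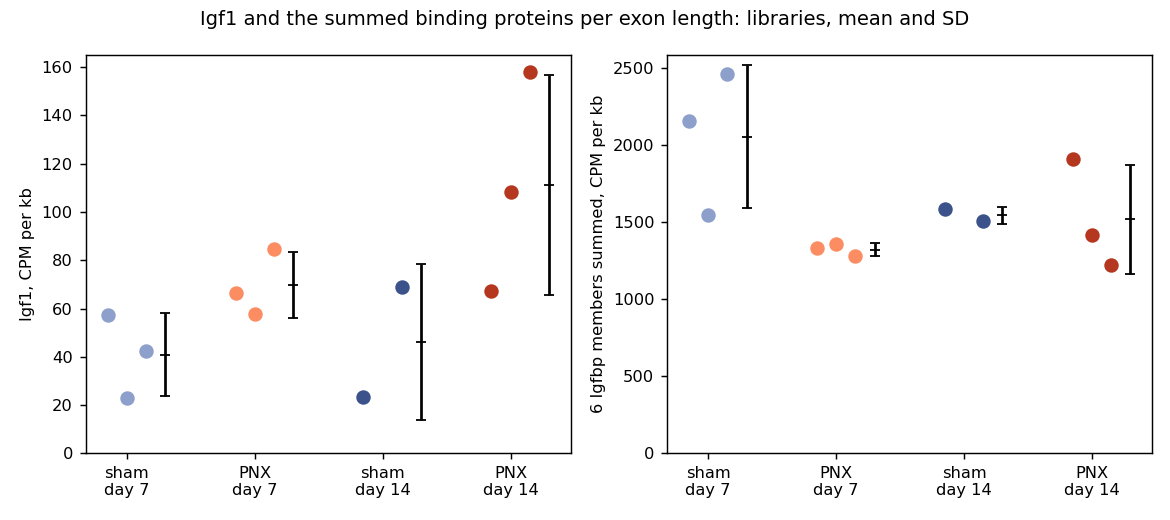
Igf1 (left) and the sum of the 6 Igfbp genes (right) in CPM per kilobase of exon in each library, with the mean and SD of each group in black. At day 7 the Igf1 points of PNX lie above those of sham while the summed binding proteins of PNX (mean 1322) lie below those of sham (mean 2052), and at day 14 the groups overlap in both panels.

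Other extracellular genes of the system were described as a list of 15, of which 14 were tested: 5 were higher and 9 lower after PNX at day 7 (median -0.155, beside 0.03 for all genes), 9 higher and 5 lower at day 14 (median 0.37, beside -0.07), and 0 passed at either day. Igfbp1, the liver-derived binding protein gene, had 0 to 7 counts in a library and was left out by the filter. The genes named here had the smallest unadjusted p of their list. The protease gene Pappa2, whose product cleaves IGFBP3 and IGFBP5, averaged 3.43 ± 1.12 CPM after sham and 10.2 ± 3.78 CPM after PNX at day 7 (1.56 ± 0.51, adjusted p = 0.187 by edgeR). Pappa, whose product cleaves IGFBP4, stood at 8.90 ± 3.09 and 28.2 ± 14.8 CPM at day 14 (1.69 ± 0.49, adjusted p = 0.385). Htra3, a serine protease gene, stood at 522 ± 386 and 155 ± 21.8 CPM at day 7 (-1.75 ± 0.48, adjusted p = 0.122). Its relative Htra4 stood at 8.45 ± 2.30 and 20.8 ± 1.34 CPM at day 14 (1.31 ± 0.46, adjusted p = 0.538).

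Of 34 genes of insulin and IGF receptor signalling, all tested, 13 were higher and 21 lower at day 7 (median -0.15), 19 higher and 15 lower at day 14 (median 0.18), and 0 passed. Socs3, a cytokine-induced inhibitor that also binds the insulin and IGF receptors, averaged 819.7 ± 759 CPM after sham and 154 ± 49.1 CPM after PNX at day 7 (-2.41 ± 0.59, adjusted p = 0.102 by edgeR). Its relative Socs1 stood at 53.4 ± 26.3 and 9.58 ± 0.556 CPM (-2.48 ± 0.61, adjusted p = 0.107). Gsk3b, a kinase inhibited by AKT, averaged 107 ± 38.9 CPM after sham and 381 ± 128 CPM after PNX at day 14 (1.83 ± 0.40, adjusted p = 0.115). Rps6kb1, the S6 kinase gene downstream of mTOR, stood at 84.5 ± 49.6 and 157 ± 41.4 CPM (0.89 ± 0.40, adjusted p = 0.706).

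FoxO factors, which AKT keeps out of the nucleus, and their targets formed a list of 18 with 17 tested, of which 10 were lower at day 7 and 11 at day 14 (medians -0.28 and -0.06). At either day 0 passed, and over both days 1 passed as lower. Klf15, a transcription factor gene raised in fasting and by glucocorticoids, averaged 23.4 ± 7.39 CPM after sham and 8.81 ± 1.85 CPM after PNX at day 7 (-1.40 ± 0.41, adjusted p = 0.145 by edgeR). At day 14 it stood at 19.01 ± 3.13 and 4.69 ± 2.12 CPM (-2.03 ± 0.45, adjusted p = 0.119). Klf15 is the gene that passed over both days (-1.71 ± 0.30, adjusted p = 0.0204 by edgeR). Foxo3 stood at 15.02 ± 11.02 and 2.34 ± 0.695 CPM at day 7 (-2.69 ± 0.81, adjusted p = 0.153), and Pdk4, a kinase gene of fuel choice, at 17.9 ± 9.17 and 7.69 ± 3.56 CPM at day 14 (-1.23 ± 0.50, adjusted p = 0.661).

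The growth hormone axis, which drives Igf1 in liver, had 7 genes tested, 2 higher and 5 lower at day 7 and 4 higher and 3 lower at day 14, with 0 past the threshold. Jak2, the kinase of the growth hormone receptor, averaged 22.6 ± 4.499 CPM after sham and 44.6 ± 6.99 CPM after PNX at day 7 (0.98 ± 0.33, adjusted p = 0.202 by edgeR), and Stat5b, the factor that it activates, at 60.1 ± 21.9 and 33.2 ± 4.94 CPM (-0.86 ± 0.34, adjusted p = 0.278). Cish, a target of STAT5, stood at 21.6 ± 6.04 and 10.4 ± 4.09 CPM at day 14 (-1.05 ± 0.45, adjusted p = 0.693). Of 16 imprinted growth genes, a class to which Igf2 and Igf2r belong, 7 were higher and 9 lower at day 7 and 5 higher and 11 lower at day 14, with 0 past the threshold. Peg3 stood at 77.4 ± 25.9 and 32.5 ± 6.16 CPM at day 7 (-1.25 ± 0.37, adjusted p = 0.153), and Meg3, a noncoding RNA gene, at 107 ± 95.0 and 253 ± 69.3 CPM at day 14 (1.24 ± 0.53, adjusted p = 0.691). Of the 3 genes of IGF2 mRNA-binding proteins, 2 were higher at day 7 and 0 at day 14, where Igf2bp1 stood at 7.98 ± 8.19 and 2.47 ± 1.09 CPM (-1.64 ± 0.72, adjusted p = 0.702).

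The genes whose log2 CPM followed a member most closely over the 11 libraries were sought among 9393 well expressed genes. For Igf1 they were Zfp57 (Pearson r = 0.974) and Zdhhc20 (0.967), for Igf1r Srgap2 and the metalloproteinase gene Mmp2 (0.945 each), and for Igfbp5 Tspan5 (0.953) and Hgsnat (0.950). For Igfbp6 they were Pid1 (0.934) and Cyr61 (0.919), for Igfbp4 Zdhhc7 (0.965) and Tcf3 (0.938), and for Igfbp7 Zfp622 (0.952) and H2-Ke6 (0.937). Weaker matches were found for Igf2r with Auts2 (0.899) and Cacnb3 (0.891), Igfbp2 with Nufip1 (0.882) and Mal2 (0.878), Igf2 with Dtwd2 (0.867) and Tmem164 (0.844), and Igfbp3 with Ddrgk1 (0.845) and Tnfsf12 (0.836). The values describe these libraries, which share depth and background between genes, and the highest of 9393 coefficients is large by choice. No member was among the 2 closest genes of another.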

How the data were processed

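RNA of 11 libraries of sorted lung mesenchymal cells was measured. Per the labels' protocols, RNA was extracted with the RNeasy Micro Kit and libraries were made with the low-input NEBNext chemistry. The authors deposited raw read counts per gene symbol, and the submitters' processing notes name bcl2fastq 2.20.0.422 and the build mm10. Aligner, counting tool, annotation, strand setting and filters are not given in the sources used here.

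The count test was edgeR's quasi-likelihood F test (version 4.0.16, under R 4.3.3), run robustly with TMM scaling on the 16011 of 24411 genes that filterByExpr kept. Each of the 4 groups had its own mean, and the 11 libraries left 7 residual degrees of freedom. The Benjamini-Hochberg adjustment covered every tested gene, a call needed an adjusted p under 0.05, and adjusted p without a named tool is from edgeR. Standard errors are the absolute log2 fold change divided by the square root of F. Tests were tried on simulated data. Exon lengths and positions are from GENCODE M21. Library totals of 2539628 to 9008592 counts set the precision.

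Alternatives were DESeq2 1.42.0, limma 3.58.1 voom with sample weights, other scalings, no filter on low counts, a replicate block and leaving out each library. Leaving out the 3 libraries of highest receptor-gene background and a covariate for the presence or absence of Y-linked counts were added after seeing the data. The genes and lists were chosen with earlier results of these data known. Besides the 10 genes, up to 2 genes per pathway list and day with the smallest unadjusted p under 0.05 are named, and the 2 genes most correlated with each member (mean log2 CPM of at least 3). Figures were drawn with Python 3.11.15 and matplotlib 3.10.9.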

Additional observations from a re-analysis of the deposited data

How the results depend on the processing

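Of 363 values of 33 gene results with 1 library left out, 344 kept their direction and side of the threshold, 15 reversed and 4 passed it, and of 264 under other settings 247, 13 and 4 did so. These 33 are the results whose estimates are given above, not every member in every comparison. Those not followed include estimates near 0, such as Igf2 (-0.0046) and Igf1r (0.0064) over both days. The fits with 1 library left out include those that dropped a library of a group outside the comparison. The counts of genes called moved most. At day 7, 6 genes were called, against 434 by DESeq2, 932 by limma voom, 12 with total counts, 178 with no filter on low counts, 22 without the 3 libraries of highest background, 17 with the Y-linked covariate and 3 to 425 with 1 library left out. At day 14, 1 was called, against 108 by DESeq2, 0 by voom, 2 with RLE factors, 3 with total counts, 27 with no filter, 0 with the replicate block, 23 without the background libraries, 0 with the covariate and 0 to 74 with 1 left out. Over both days, 31 were called, against 295, 5 by voom, 50 with total counts, 102 with no filter, 20 with the replicate block, 98 without the background libraries and 8 to 192. For the interaction, 0 were called by edgeR (666 higher and 736 lower at an unadjusted p under 0.05), against 93 by DESeq2, 1 by voom, 1 with total counts, 8 with no filter, 1 with the replicate block, 3 without the background libraries, 1 with the covariate and 0 to 370. Between days after PNX, 0 were called by edgeR (595 and 501 at an unadjusted p under 0.05), against 63 by DESeq2, 174 by voom, 8 with no filter, 1 with the replicate block, 3 with the covariate and 0 to 2. Between days after sham, 3 were called, against 641 by DESeq2, 1 by voom, 0 with total counts, 102 with no filter, 1 with the replicate block, 16 without the background libraries, 5 with the covariate and 1 to 958. Of the 10 members 0 were called by edgeR, and 1 was at day 7 by DESeq2 and by voom, over both days by DESeq2 and between days after sham by DESeq2, and 0 to 2 were with 1 library left out for the interaction and between days after sham. Without sham day 14 replicate 1 or 2, and without the 3 libraries of highest background, the lone sham library of day 14 is assumed to vary like the other groups. The cause was not tested.

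Reversed estimates among the results followed were these. At day 7 they were Igf2r (0.0825 with total counts), Igfbp2 (-0.34 without the background libraries), Igfbp4 (-0.0427 with no filter, -0.0061 without the background libraries) and Igfbp7 (0.21 by voom, 0.10 with total counts, 0.0224 without the background libraries, 0.066 with the covariate). At day 14 they were Igfbp2 (0.45 with the replicate block, 1.25 without the background libraries), Igfbp4 (0.36) and Igfbp7 (0.65) without the background libraries, and Igfbp6 (0.0332 with no filter). With 1 library left out, day 7 estimates ranged from -0.29 to 1.24 for Igfbp2, -0.19 to 0.16 for Igfbp4 and -0.38 to 0.12 for Igfbp7. Day 14 estimates ranged from -0.82 to 1.21 for Igfbp2, -0.39 to 0.32 for Igfbp4, -0.32 to 0.26 for Igfbp6 and -0.58 to 0.61 for Igfbp7, and the interaction of Igf1 from -0.0746 to 1.69. Total counts moved the median of all genes by 0.18 at day 7 and -0.19 at day 14 on the log2 scale. Same-numbered libraries did not deviate together in every pair: correlations over 9714 genes were -0.135, 0.56 and 0.241 between surgeries at day 7 and -0.271 and -0.21 at day 14. Replicates 2 and 3 at day 7 did deviate together, but not every pair did. Replicate 2 of sham and of PNX at day 7, the pair at 0.56, are both among the 3 libraries of highest background. The part of background in that value was not tested. Sham at day 14 has 2 libraries, whose deviations mirror each other, so the 2 values of that day are not independent. The labels do not say what a number marks, so the libraries were not treated as paired.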
